A study of Mus musculus with 9 samples.

Results

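The Hox cluster genes are the homeobox transcription factor genes that lie side by side in 4 clusters, Hoxa on chromosome 6, Hoxb on chromosome 11, Hoxc on chromosome 15 and Hoxd on chromosome 2 of the mouse genome (mm10). They were taken as every symbol made of Hox, a cluster letter and a paralogue number, which gave 26 of the 24571 symbols used: 8 of Hoxa, 8 of Hoxb, 4 of Hoxc and 6 of Hoxd. The annotation (GENCODE M21) holds 39 such genes, and the other 13 (Hoxa6, Hoxa11, Hoxa13, Hoxb1, Hoxb13, Hoxc9, Hoxc10, Hoxc11, Hoxc12, Hoxc13, Hoxd1, Hoxd12 and Hoxd13) were not analysed here. No symbol in the table was at 0 in all 9 libraries.

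Hearts of C57BL/6N mouse embryos at E18.5, late in gestation, had been sequenced after mRNA capture, with 3 libraries from each of 3 genotypes: wild type, heterozygous for the CRISPR/Cas9-edited Ctcf allele R567W (Ctcf+/R567W), and homozygous for it (CtcfR567W/R567W). The allele replaces arginine 567 of CTCF, the zinc finger protein that binds chromatin boundaries, and is carried by every cell of the embryo. No litter, sex or founder line is given for a library. Xist levels, given further on, place libraries of both sexes in the wild-type and in the homozygous group, so each of these groups holds at least 2 embryos. Values are TPM, which divide a gene's reads by its transcript length and by the library total, so that levels of different genes can be compared. The number of reads behind a value is unknown, so a value of 0 has no stated detection limit.

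Within a Hox cluster, gene order matches the order of expression along the body axis. Low-numbered paralogues are used in the hindbrain, pharyngeal arches and the cells that feed the heart tube, and high-numbered ones (9 to 13, the posterior genes) in the trunk, limbs and urogenital tract. Retinoic acid opens the clusters from the low-numbered end, Polycomb complexes keep the unused part silent, Trithorax complexes oppose them, and CTCF sites separate the active from the silent stretch. The question asked of these data was whether the posterior genes, at or near 0 in a wild-type heart, were also low in hearts with the altered CTCF.

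Promoter sequences from RefSeq (GRCm38.p6, 250 bases before to 50 after the start) matched 15 of the 26 genes, with 17 windows. Those of Hoxa2 and Hoxd10 are shown because these were the genes whose homozygous and wild-type libraries did not overlap. Hoxa2 lies at chr6:52162417-52164831 on the minus strand, and its window at chr6:52164782-52165081. Hoxd10 lies at chr2:74691924-74695105 on the plus strand, and its window at chr2:74691641-74691940. Capitals mark a match to the Hox-Pbx motif TGATNNAT in Hoxa2, 111 bases before the start, and to the retinoic acid receptor half-site AGGTCA in Hoxd10, 69 bases before it. Both matches read on the opposite strand of the window.
Hoxa2: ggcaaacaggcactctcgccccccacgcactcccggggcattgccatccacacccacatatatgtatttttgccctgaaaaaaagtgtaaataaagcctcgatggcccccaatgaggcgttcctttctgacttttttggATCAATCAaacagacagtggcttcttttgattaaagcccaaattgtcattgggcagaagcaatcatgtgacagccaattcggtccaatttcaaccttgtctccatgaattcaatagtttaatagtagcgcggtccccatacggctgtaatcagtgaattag
Hoxd10: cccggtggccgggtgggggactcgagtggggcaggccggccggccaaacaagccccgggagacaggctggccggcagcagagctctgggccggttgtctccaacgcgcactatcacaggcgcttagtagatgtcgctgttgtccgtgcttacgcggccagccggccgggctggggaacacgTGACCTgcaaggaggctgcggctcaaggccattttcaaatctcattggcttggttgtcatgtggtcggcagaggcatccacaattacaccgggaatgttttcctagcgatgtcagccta
Searched on both strands, TGATNNAT was in 3 of the 17 Hox windows (17.6%) and in 8.85% of all 32851 promoter windows. The half-site AGGTCA was in 7 of 17 (41.2%), those of Hoxa5, Hoxb4, Hoxc4, Hoxd3, Hoxd4, Hoxd8 and Hoxd10, against 16.3% of all windows. A direct repeat of AGGTCA with 5 bases between was in none of the 17 and in 0.00913% of all, and its half-sites are included in the AGGTCA count. The Hox windows had a median GC content of 55.7%, against 52.7% over all, and a median CpG observed-to-expected ratio of 0.593, against 0.384.

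Hox transcripts were scarce in hearts of every genotype and came mainly from the low-numbered end. Of the 234 values (26 genes in 9 libraries), 73 were 0 and the highest was 3.02 TPM. Only Hoxb2, Hoxa3 and Hoxb3 averaged 1 TPM or more across the 9 libraries, 3 of 26 (11.5%), against 55.7% of all 24571 symbols. A further 3 genes, Hoxa2, Hoxa5 and Hoxb4, reached 1 TPM in at least 1 library. Of the 13 genes of paralogue groups 6 to 13, Hoxd8 alone reached 0.5 TPM. Paralogue groups 1 to 3 (6 genes) held 59.0% of all Hox TPM, groups 4 to 8 (14 genes) 36.9% and groups 9 to 13 (6 genes) 4.05%. By cluster, Hoxb held 43.7%, Hoxa 37.4%, Hoxd 16.3% and Hoxc 2.65%, summed over the 9 libraries. Hoxa exceeded Hoxb in 4 of the 9 (wild-type 2, heterozygous 1, homozygous 1 and homozygous 3).

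**Figure D1:**
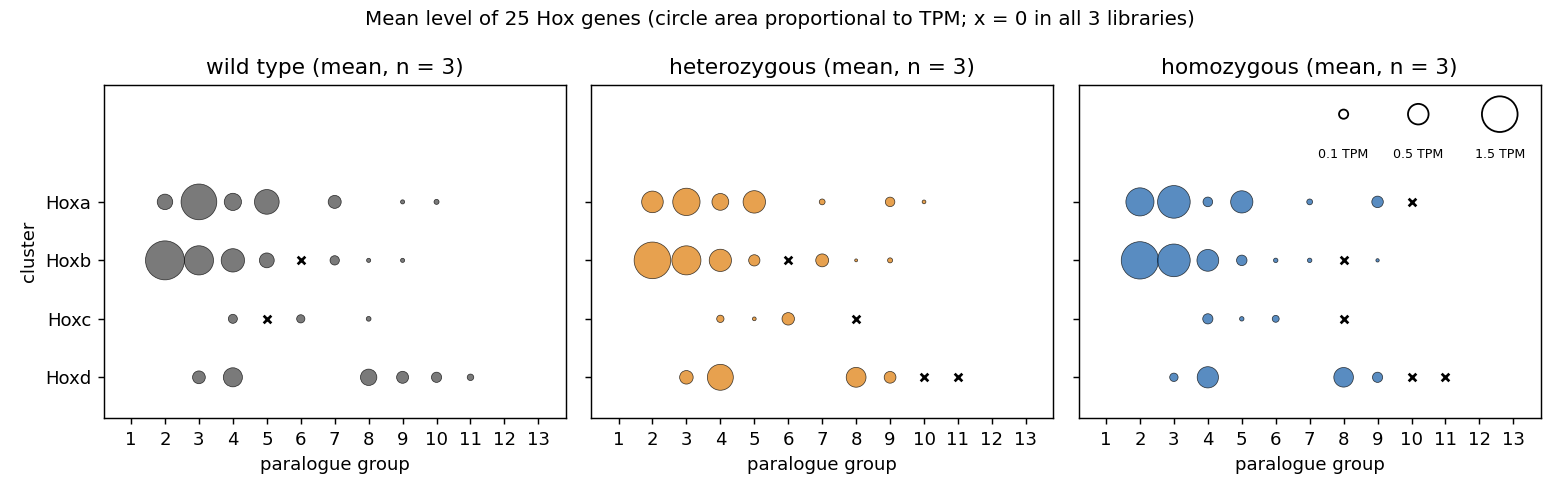
Mean TPM of 25 of the 26 Hox genes by cluster (y axis) and paralogue group (x axis) in wild-type, heterozygous and homozygous hearts (n = 3 libraries each). Circle area is proportional to the mean, and a cross marks a gene at 0 in all 3 libraries of that genotype. In every genotype the large circles lie in groups 2 to 5, and groups 9 to 11 hold small circles or crosses.

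The posterior genes were near 0 in the hearts of all 3 genotypes. The 6 posterior genes listed, of 16 annotated, gave 54 values, of which 29 were 0 and the highest was 0.38 TPM, of Hoxd9 in heterozygous library 1. Their summed level was 0.60, 0.40 and 0.24 in wild types, 0.44, 0.37 and 0.14 in heterozygotes and 0.41, 0.17 and 0.30 TPM in homozygotes. The genotypes overlapped, with means of 0.413 ± 0.180, 0.317 ± 0.157 and 0.293 ± 0.120 TPM (SD, n = 3). The homozygous mean was 0.12 TPM below the wild-type mean, a distance about the size of the homozygous SD.

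Hoxd9, used in the trunk and forelimb, was the most abundant posterior gene, with 0.23, 0.14 and 0.14 in wild types, 0.38, 0.07 and 0.04 in heterozygotes and 0.15, 0.08 and 0.14 TPM in homozygotes. Hoxa9, known for its role in blood progenitors, had 0, 0 and 0.06 in wild types, 0, 0.30 and 0.02 in heterozygotes and 0.26, 0.05 and 0.16 TPM in homozygotes. It was the one posterior gene with its highest mean in homozygous hearts, and its groups overlapped. Hoxa10, a gene of the developing uterus and limb, reached 0.09 TPM in wild-type library 2 and 0.05 TPM in heterozygous library 3 and was at 0 in the other 7. Hoxb9 lay between 0 and 0.06 TPM.

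Hoxd10, which acts in limb and spinal motor neuron development, was above 0 only in wild-type libraries, at 0.16, 0.17 and 0.04 TPM, and was at 0 in all 6 mutant libraries. Its neighbour Hoxd11, used in the forearm and kidney, was at 0.15 TPM in wild-type library 1 and at 0 in the other 8. Hoxd10 did not overlap between wild type and either mutant genotype, being lower in the mutants, at levels of at most 0.17 TPM. In a limma fit to all 24571 symbols without a filter, the Hoxd10 difference in log2(TPM + 1) between homozygous and wild type was -0.17 ± 0.05 (SE), with an unadjusted p of 0.00929 and a Benjamini-Hochberg adjusted p of 0.197. Between heterozygous and wild type the fitted difference had the same size, since both mutant groups were at 0, and an adjusted p of 0.813.

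Above 0 in at least 1 wild-type and at least 1 mutant library were 21 of the 26 genes. Those above 0 only in wild type were Hoxc8 (0.08 TPM in library 3), Hoxd10 and Hoxd11. Above 0 only in mutants were Hoxb6, at 0.07 TPM in homozygous library 2, and Hoxc5, at 0.05 TPM in heterozygous library 3 and at 0.05 and 0.02 TPM in homozygous libraries 1 and 3. Every library was under 0.1 TPM for 6 of 26 genes (23.1%), namely Hoxa10, Hoxb6, Hoxb8, Hoxb9, Hoxc5 and Hoxc8, against 7.91% of all symbols. Of these 6, Hoxa10, Hoxb8 and Hoxb9 were above 0 in both wild-type and mutant libraries. No Hoxc gene reached 0.5 TPM, and the cluster's summed level averaged 0.203 TPM in wild type, 0.263 in heterozygous and 0.203 in homozygous hearts. Hoxc4 ranged from 0 to 0.33 TPM, Hoxc6 from 0 to 0.20 TPM, Hoxa7 from 0 to 0.35 TPM and Hoxb7 from 0 to 0.26 TPM.

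Among the genes of groups 1 to 3, Hoxb2, a hindbrain and facial nerve patterning gene, was the most abundant of all Hox genes, with a mean of 1.67 TPM. It was at 3.02, 0.85 and 1.51 in wild types, 1.31, 0.84 and 2.60 in heterozygotes and 1.64, 2.32 and 0.98 TPM in homozygotes. Hoxa3, required for thymus and parathyroid formation, was at 2.23, 2 and 0.29 in wild types, 1.42, 0.35 and 0.87 in heterozygotes and 1.16, 1.41 and 1.2 TPM in homozygotes. The homozygous libraries of Hoxa3 lay inside the wild-type range. Hoxb3, a pharyngeal and hindbrain gene, was at 1.70, 0.61 and 0.71 in wild types, 1.28, 1.01 and 0.70 in heterozygotes and 1.31, 1.14 and 1.33 TPM in homozygotes, again within the wild-type range. With means of 1.67, 1.21 and 1.09 TPM, these 3 did not differ in order beyond the spread between libraries.

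These were the 3 Hox genes among the 13682 genes tested (those averaging 1 TPM or more), and none was called in any comparison by limma at an adjusted p under 0.05. The count at an unadjusted p under 0.05 was also 0 in each. Between homozygotes and wild types, 0.336% of all genes tested were called and 25.0% had an unadjusted p under 0.05. The shares were 0.0439% and 7.15% between homozygotes and heterozygotes, and 0.0146% and 6.87% between heterozygotes and wild types. The count for homozygotes against wild types rested on single libraries: 46 genes were called with all libraries, 2161 (15.8%, 2022 of them higher) without wild-type library 3 and 279 (247 higher) without homozygous library 3, and no Hox gene was among the calls in any of these. The median gene was 0.23 higher on the log2 scale in homozygous than in wild-type hearts, and of the 46 genes called 26 were higher; with median-ratio scaling that median was 0.02 and 42 of 229 calls were higher.

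For homozygous against wild type, the differences in log2(TPM + 1) were -0.04 ± 0.37 (SE) for Hoxa3 (limma adjusted p = 0.952), -0.04 ± 0.36 for Hoxb2 (adjusted p = 0.958) and 0.21 ± 0.27 for Hoxb3 (adjusted p = 0.626). Relative to the median gene these were -0.27, -0.27 and -0.02. The Hoxa3 difference turned to 0.20 without wild-type library 1 and to 0.14 without wild-type library 2, and the Hoxb2 difference to 0.26 without wild-type library 1 and 0.16 without homozygous library 3. For homozygous against heterozygous, the highest difference was 0.30 ± 0.37 (Hoxa3, adjusted p = 0.882) and the lowest 0.06 ± 0.36 (Hoxb2, adjusted p = 0.980). For heterozygous against wild type, the lowest was -0.34 ± 0.37 (Hoxa3, adjusted p = 0.750) and the highest 0.02 ± 0.27 (Hoxb3, adjusted p = 0.982).

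Hoxa2, which patterns the second pharyngeal arch, separated both mutant genotypes from wild type, at a mean of 0.589 TPM, below the filter of the fit above. It was at 0.33, 0.26 and 0.26 in wild types, 0.82, 0.47 and 0.36 in heterozygotes and 0.86, 0.69 and 1.25 TPM in homozygotes. Every mutant library lay above every wild-type library, and the heterozygous and homozygous libraries overlapped. The means were 0.283 ± 0.040, 0.550 ± 0.240 and 0.933 ± 0.287 TPM (SD, n = 3). Without a filter, the difference in log2(TPM + 1) between homozygous and wild type was 0.58 ± 0.15 (SE), with an unadjusted p of 0.0039 and an adjusted p of 0.172 in limma. With a filter at 0.1 TPM and a pseudocount of 0.1 it was 1.40 ± 0.42 (adjusted p = 0.149, with 0.169% of genes called), and with median-ratio scaling and no filter 0.50 (adjusted p = 0.239). None of these passed the threshold. GENCODE places 15.0% of the exon bases of Hoxa2 under the gene model Gm28308, and the use of strand in the counting is not given in the sources used here.

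Over the 26 genes, Hoxa2 was thus the 1 gene with every homozygous library above every wild-type library, and Hoxd10 the 1 gene with every one below. Among all 24571 symbols the corresponding shares were 15.5% and 2.09%, and among the symbols with a mean under 1 TPM they were 6.89% and 1.72%. The same 2 genes separated heterozygous from wild type, a comparison that shares the wild-type libraries, where the shares were 8.76% and 1.16% over all symbols and 3.72% and 1.33% over those under 1 TPM. Between homozygous and heterozygous no Hox gene was higher without overlap (8.54% of all symbols, 4.15% of those under 1 TPM) and Hoxb7 and Hoxc6 were lower (3.01% and 1.96%). Hoxb7 was at 0.26, 0.13 and 0.20 in heterozygotes against 0, 0.07 and 0 TPM in homozygotes. Hoxc6 was at 0.20, 0.20 and 0.15 in heterozygotes against 0.06, 0.06 and 0.05 TPM in homozygotes. The wild-type values of Hoxb7 (0.24, 0.07 and 0 TPM) and Hoxc6 (0.19, 0 and 0.05 TPM) overlapped both. In the fit without a filter none of the 26 genes was called in any comparison, against 0.0895%, 0.00814% and 0.0122% of all symbols, and 2, 2 and 1 had an unadjusted p under 0.05, against 16.7%, 6.19% and 5.21%.

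**Figure D2:**
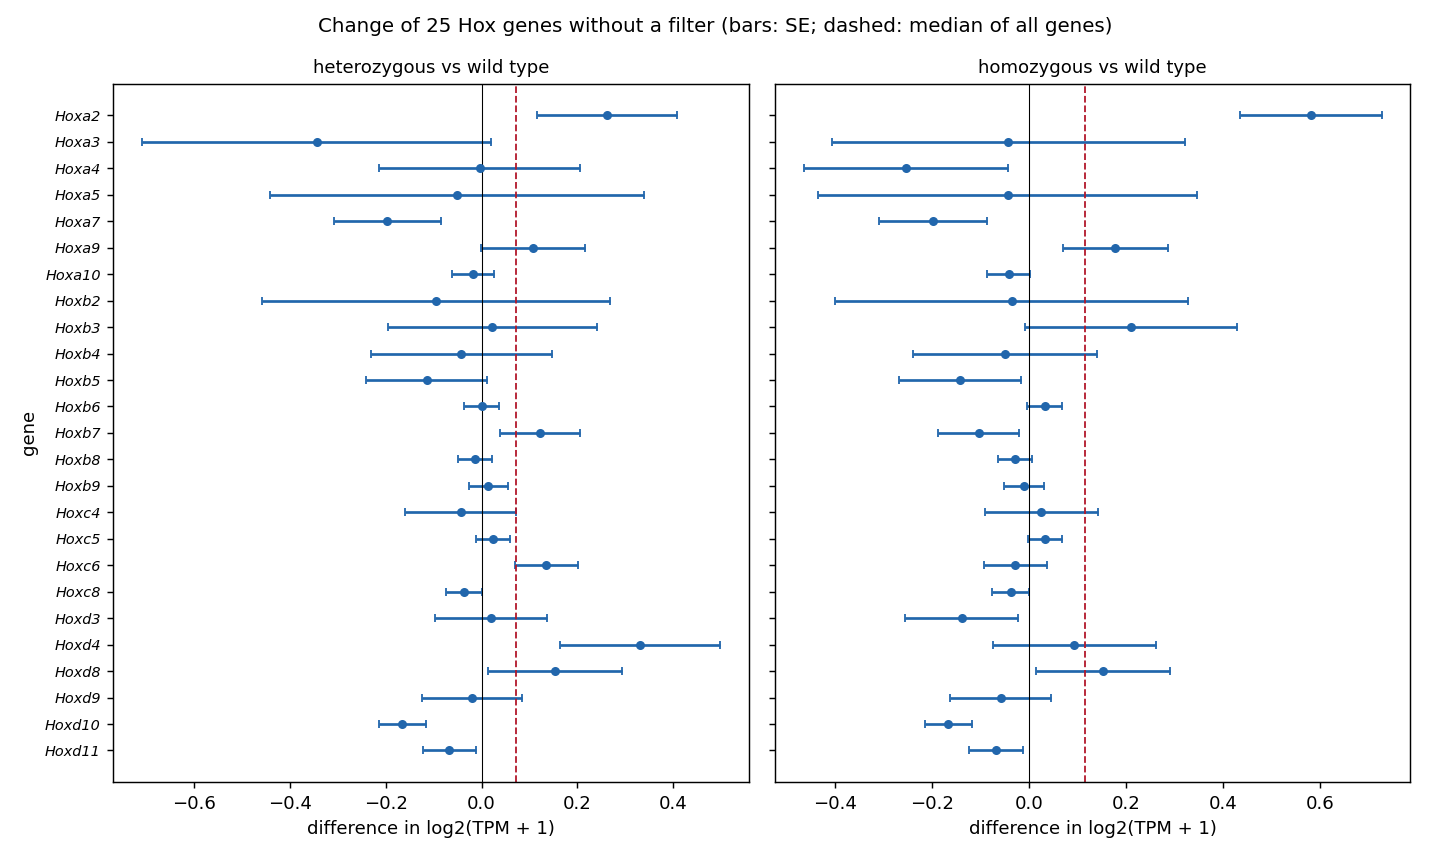
Difference in log2(TPM + 1) for 25 of the 26 Hox genes (y axis) in the limma fit without a filter, for heterozygous against wild type (left) and homozygous against wild type (right). Bars are standard errors and the dashed line is the median of all 24571 symbols. Hoxa2 lies farthest to the right in the homozygous panel, at 0.58, and among groups 9 to 11 Hoxa9 lies at 0.18 and Hoxd10 at -0.17.

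Other genes that reached 0.5 TPM in a library overlapped between genotypes. Hoxa4 was at 0.70, 0.35 and 0 in wild types, 0.39, 0.05 and 0.56 in heterozygotes and 0.22, 0.11 and 0 TPM in homozygotes. Hoxb4, known from blood stem cells, was at 0.66, 0.26 and 1.01 TPM, then 0.78, 0.28 and 0.69 TPM, then 0.56, 0.54 and 0.58 TPM in the same order of genotypes. Its homozygous libraries differed by 0.02 TPM (SD) and the wild-type libraries by 0.375 TPM.

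Hoxb5 was highest in wild-type library 1, at 0.53 TPM, and lay between 0.05 and 0.22 TPM in the other 8. Hoxd4, a vertebral and hindbrain patterning gene, was at 0.63, 0.23 and 0.43 in wild types, 0.89, 0.58 and 0.91 in heterozygotes and 0.86, 0.31 and 0.43 TPM in homozygotes. Hoxd8 was at 0.23, 0.17 and 0.55 in wild types, 0.67, 0.25 and 0.47 in heterozygotes and 0.51, 0.40 and 0.45 TPM in homozygotes. Hoxd3 lay between 0 and 0.33 TPM. In the annotation other gene models cover 62.8% of the exon bases of Hoxd3, 52.3% of Hoxd4 and 52.9% of Hoxb3. They cover 27.3% of Hoxb2 and 27.1% of Hoxa3, the Hox genes with the highest means. Reads of these genes may have been split among such models or taken from them.

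**Figure D3:**
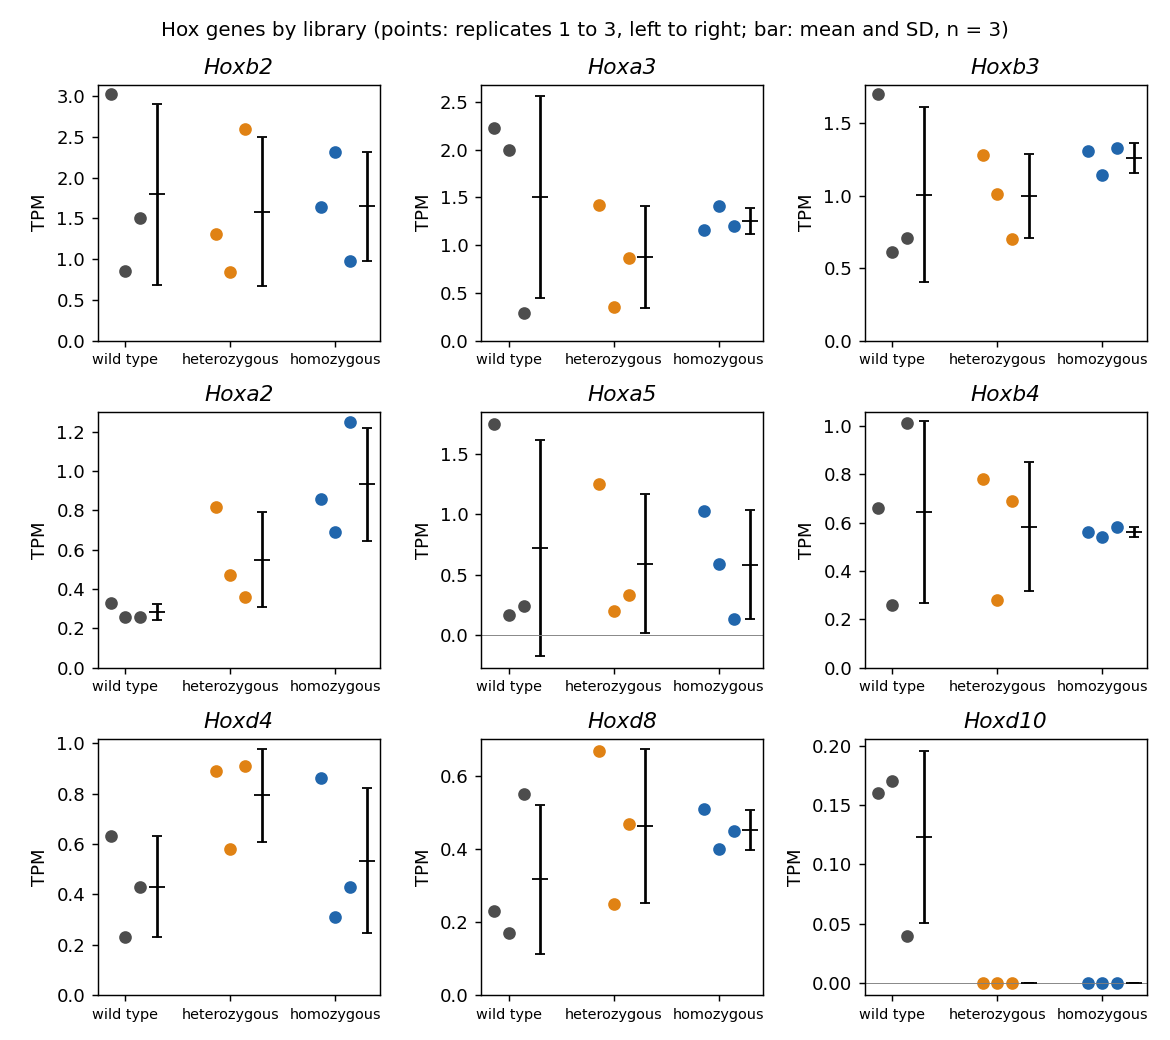
TPM (y axis, from 0) of 9 Hox genes in each library, by genotype (x axis). Points are replicates 1 to 3 from left to right, and the bar beside them is the mean and SD (n = 3). Hoxa2 lies between 0.26 and 0.33 TPM in wild type and between 0.69 and 1.25 TPM in homozygous libraries, and Hoxd10 is at 0 in every mutant library, while the other 7 genes overlap.

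Several libraries held transcripts of neighbouring organs. The summed level of 12 airway and lung markers was 2628 TPM in wild-type library 1 and 1109 TPM in heterozygous library 1, and between 2.19 and 52.8 TPM in the other 7. Homozygous library 3 had 582 TPM of thymocyte markers (at most 2.78 TPM elsewhere) and 235 TPM of thymic epithelium markers, and heterozygous library 1 had 3940 TPM of liver markers. The 10 cardiomyocyte markers, which check the heart label, summed to between 32872 and 48157 TPM. Xist was at 87.8 TPM in wild-type library 1, between 112 and 146 TPM in the 3 heterozygous libraries, at 123 TPM in homozygous library 1 and at most 0.05 TPM in the others, so the genotypes were not balanced for sex.

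Hoxa5, which is required for lung and trachea development, was at 1.75, 0.17 and 0.24 in wild types, 1.25, 0.20 and 0.33 in heterozygotes and 1.03, 0.59 and 0.13 TPM in homozygotes. Its 3 highest values were in the 3 libraries with the most airway and lung marker transcripts (2628, 1109 and 52.8 TPM). The order did not hold below these. Wild-type library 2, with 38.5 TPM of these markers, had Hoxa5 at 0.17 TPM, and homozygous library 2, with 6.85 TPM, had it at 0.59 TPM. Wild-type library 1 held the highest value of 7 of the 26 genes, more than any other library. The summed level of all Hox genes was 13.7, 6.11 and 6.16 in wild types, 10.5, 5.05 and 9.02 in heterozygotes and 9.87, 8.30 and 7.15 TPM in homozygotes. The means were 8.66 ± 4.38, 8.19 ± 2.81 and 8.44 ± 1.37 TPM (SD, n = 3), and the homozygous mean was 0.223 TPM below the wild-type mean. Without wild-type library 1, which had the highest sum, the homozygous mean was 2.31 TPM above it. In that setting the median of all genes tested was also 0.18 higher in homozygotes on the log2 scale. The part of the airway and lung transcripts in these levels was not tested, and in whole hearts more cells with Hox transcripts and more Hox RNA per cell cannot be told apart.

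**Figure D4:**
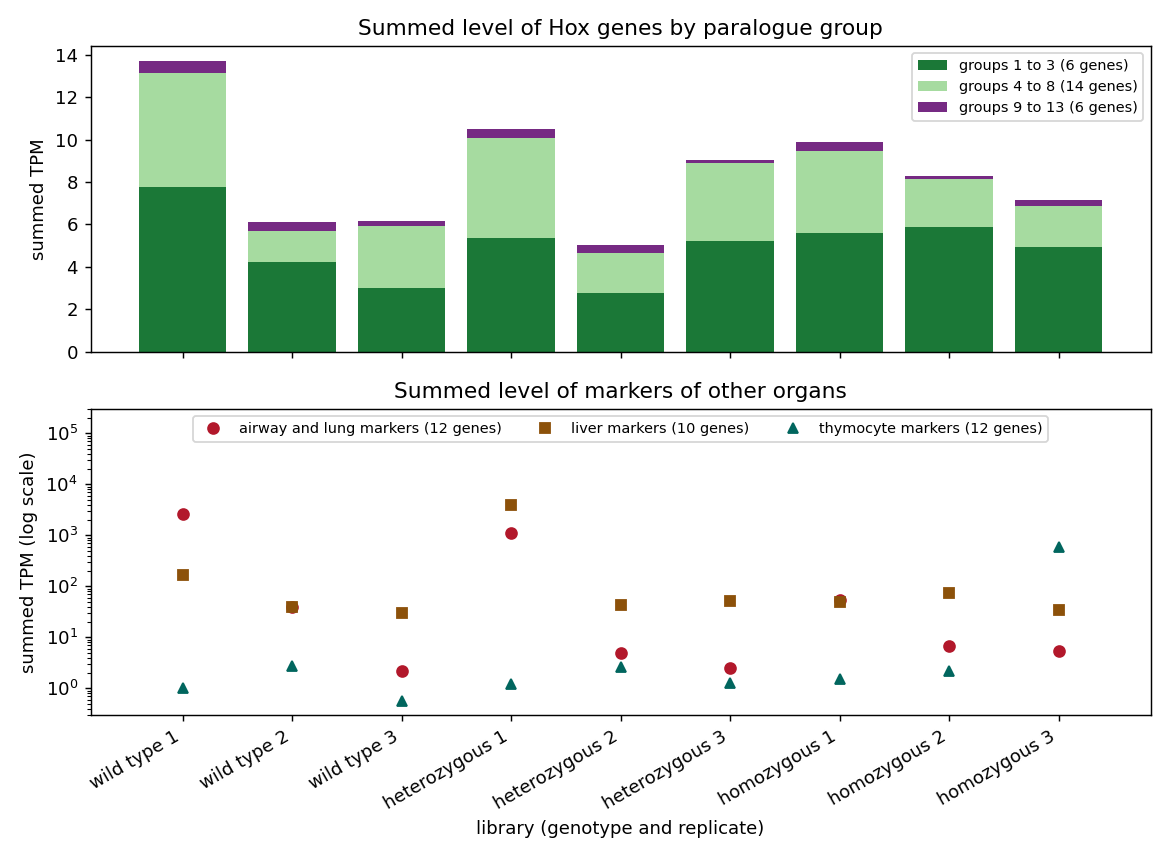
Top, summed TPM of Hox genes per library, stacked by paralogue groups 1 to 3, 4 to 8 and 9 to 13. Bottom, summed TPM of airway and lung, liver and thymocyte markers in the same libraries on a log axis. The tallest Hox bar, 13.7 TPM, is wild-type library 1, which also has the most airway and lung transcripts, and the band of groups 9 to 13 is at most 0.60 TPM in any library.

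Some genes near each cluster were chosen for comparison. Those of Hoxa (Skap2 and Hibadh), Hoxc (Smug1 and Calcoco1) and Hoxd (Mtx2 and Lnp) exceeded the highest Hox value in every library. Those of Hoxb (Skap1 and Calcoco2) did not. Of other genes near Hoxb, Snx11 (lowest 7.9 TPM), Cbx1, Nfe2l1 and Atp5g1 did so, and Ttll6 (0 to 0.64 TPM) did not. How Hoxb compares with the other clusters here therefore depends on the genes chosen. The remaining genes near the clusters are not covered by this comparison. Hibadh near Hoxa lay between 94.6 and 114 TPM, and Calcoco1 near Hoxc between 42.2 and 76.2 TPM. Mtx2 near Hoxd lay between 67.2 and 85.4 TPM, and Lnp on the other side of Hoxd between 7.72 and 10.3 TPM. Skap1 beside Hoxb, a T-cell adaptor gene, had a median of 0 TPM and its highest value, 20.4 TPM, in homozygous library 3, the library with thymocyte transcripts, and Calcoco2, on the other side, lay between 0 and 0.14 TPM. None of 19 tested flanking genes was called between homozygous and wild type. In the fit without wild-type library 3, which called 15.8% of all genes, 3 flanking genes were called, all higher. With all libraries, the median difference of the 19 flanking genes was 0.21 on the log2 scale, against 0.23 over all genes. The highest were Skap1 (1.51) and Atf2 (0.42), and the lowest Atp5g1 (-0.13) and Atp5g3 (-0.08).

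The TALE homeodomain proteins, which bind DNA together with Hox proteins, were listed for all 9 members and tested for all 9. None was called (1, higher, without wild-type library 3), 2 had an unadjusted p under 0.05, both higher, against 25.0% of all genes tested in either direction, and the median difference was 0.22, with Pbx2 (0.48) and Pknox1 (0.39) highest and Pbx3 (0.06) and Pknox2 (0.07) lowest. Of 18 genes of retinoic acid synthesis, breakdown and reception, 12 were tested and none was called. At an unadjusted p under 0.05, 3 were higher, against the same 25.0% of all genes in either direction. The median of the 12 was 0.30. Rxrg (0.78) and Aldh1a3 (0.61) had the highest differences, and Aldh1a1 (-0.48) and Aldh1a2 (-0.10), which encode synthesis enzymes, the lowest. Without wild-type library 1, the library with the most airway and lung transcripts, Aldh1a1 turned to 0.33, and without homozygous library 3 to 0.0087.

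No Polycomb gene was called among 30. Without wild-type library 3, 9 were called, all higher, in a fit that called 15.8% of all genes. At an unadjusted p under 0.05, 12 were higher, against 25.0% of all genes tested in either direction. The median Polycomb difference was 0.32, or 0.09 above the median of all genes. Cbx8 (1.15) and Cbx7 (1.04), readers of the repressive histone mark H3K27me3, had the highest differences, and Pcgf5 (-0.04) and Yaf2 (0.09) the lowest. Cbx7 was 0.57 without homozygous library 3, which held thymocyte transcripts. Of 12 Trithorax and H3K27 demethylase genes none was called (7, all higher, without wild-type library 3) and 8 were higher at an unadjusted p under 0.05, against 25.0% of all genes tested in either direction. Their median was 0.46, with Kmt2c at 0.91 ± 0.19 (SE, limma adjusted p = 0.0764) and Kmt2a at 0.88 ± 0.19 (adjusted p = 0.0854) highest and Dpy30 (-0.10) and Men1 (0.22) lowest. Kmt2a, the methyltransferase that maintains Hox expression, was at 3.37, 5.04 and 6.55 in wild types, 7.33, 8.32 and 8.22 in heterozygotes and 10.1, 9.20 and 9.91 TPM in homozygotes. Its 3 genotypes did not overlap. Of all symbols, 15.5% were higher without overlap in homozygotes than in wild types. The shares were 8.54% for homozygotes against heterozygotes and 8.76% for heterozygotes against wild types. The share separated in all 3 comparisons was not counted.

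None of 12 CTCF and cohesin genes was called either. Without wild-type library 3, 7 were called, all higher, in a fit that called 15.8% of all genes. At an unadjusted p under 0.05, 8 were higher, against 25.0% of all genes tested in either direction. The median of the 12 was 0.38, with Pds5b (0.82) and Wapl (0.53) highest and Stag2 (0.05) and Rad21 (0.12) lowest. Ctcf itself was at 27.01, 28.95 and 34.29 in wild types, 33.76, 33.15 and 38.65 in heterozygotes and 38.89, 41.38 and 50.22 TPM in homozygotes. The allele is a missense change, so the level of Ctcf does not check the genotype labels.

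**Figure D5:**
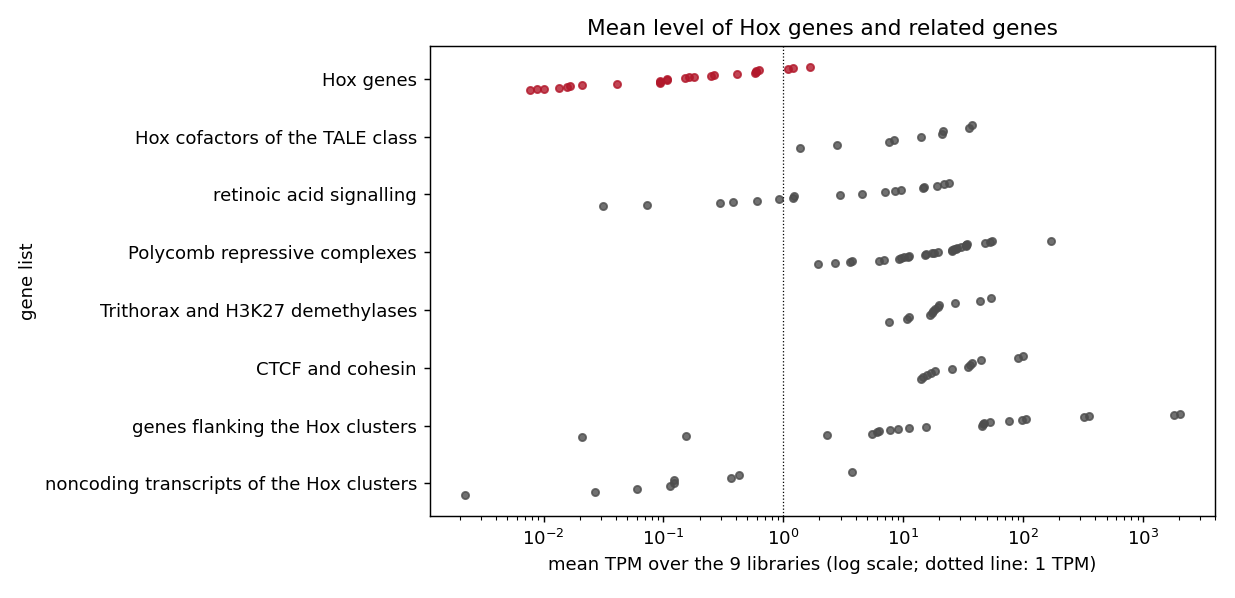
Mean TPM over the 9 libraries (x axis, log scale) of each Hox gene and of the genes in 7 related lists (y axis), 1 point per gene, with genes spread vertically by rank. The dotted line is 1 TPM, which 3 of the 26 Hox genes exceed, and every TALE, Polycomb, Trithorax and cohesin gene lies to its right.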

How the data were processed

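The submitters' processing notes name Trim Galore, STAR, RSEM, DESeq2 and mm10; neither the annotation they used nor its strand setting is given in the sources used here. The deposited table holds TPM per gene, which the authors computed from estimated counts, effective gene length and the library total. TPM keeps no depth, so counting errors are unknown and no count test was run. Of 24597 symbols, 26 turned into dates were left out (at most 0.0921% of a library). Libraries were assigned by their titles and sum to between 999100 and 999245 TPM.

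Symbols averaging 1 TPM or more were fitted as log2(TPM + 1) over all 9 libraries, with no covariate, in limma (v3.58.1; eBayes with trend; R v4.3.3). Tests were two-sided, with Benjamini-Hochberg adjustment over all 13682 genes tested and a threshold of 0.05. The fit was tested on simulated data with independent normal spread, for genes averaging 1 TPM or more. It recovered 91% of changes of 2 and 58% of changes of 1 on the log2 scale, with 6 false among 155 calls. The simulation held no outlying library and no gene under 1 TPM. The median standard error of all genes tested was 0.18 for homozygous against wild type. Each tested Hox gene had a larger one, given above, and recovery at that spread was not counted apart. The related lists, marker lists and alternatives were chosen with earlier results of these data known, as were the Hox genes. Tested Hox genes were named with their tests, posterior genes and those reaching 0.5 TPM with their values, and in each related list the 2 highest and 2 lowest differences. Motif matches, exon overlaps and sums are descriptions without a test. No pairing by replicate number is stated. The correlation of same-numbered deviations from the group means ranged from -0.0306 to 0.359. Between wild type and heterozygous it was 0.359, 0.062 and 0.297 for numbers 1, 2 and 3. Differently numbered libraries of these genotypes gave -0.314 to 0.121. Whether a shared number marks shared handling was not tested. The values of 1 of the 26 Hox genes are not reported here, and it is counted only in totals.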

Additional observations from a re-analysis of the deposited data

How the results depend on the processing

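TPM keeps no read depth, and the power to call genes under 1 TPM was not tested. No Hox gene was called in any comparison under any of 26 alternatives that tested one. Most of these tested only 3 Hox genes, or 2 where wild-type 1 and heterozygous 1 were both left out. The alternatives without a filter tested all 26, and the filter at 0.1 TPM tested 15. A filter at a mean of 5 TPM left none and gives no value. The lowest adjusted p of any Hox gene was 0.149 for homozygous against wild type, 0.65 for homozygous against heterozygous and 0.195 for heterozygous against wild type. The alternatives without wild-type 1, heterozygous 1 and homozygous 3, and median-ratio scaling with no filter, were added after seeing the data. For homozygous against wild type, Hoxa3 turned from -0.04 to 0.12 with a pseudocount of 0.1 (also with the filter at 0.1 TPM), 0.17 with an airway and lung covariate, 0.20 without wild-type 1 and heterozygous 1 and 0.21 without homozygous 3 as well. It ranged from -0.47 to 0.20 with 1 library left out. Hoxb2 turned from -0.04 to 0.24 with library weights, 0.036 with the covariate, 0.26 without wild-type 1 and heterozygous 1 and 0.46 without homozygous 3 as well, and ranged from -0.29 to 0.26 with 1 library left out. Hoxb3 turned to -0.019 with quantile normalization. Against heterozygous, homozygous Hoxb2 turned to -0.037 with quantile normalization and ranged from -0.16 to 0.33 with 1 library left out. For heterozygous against wild type, Hoxb3 turned to -0.064 with median-ratio scaling, with or without the filter, -0.13 with quantile normalization and -0.24 with Xist as a covariate, and ranged from -0.12 to 0.26 with 1 library left out. The cause was not tested. All Hox genes under 0.5 TPM in every library numbered 15, and under 0.05 TPM 0, against 6 under 0.1 TPM, or 6 to 7 with 1 library left out. The homozygous minus wild-type sum of groups 9 to 13 ranged from -0.21 to -0.03 TPM with 1 library left out, and that of all Hox genes from -1.5 to 2.31 TPM.

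With the replicate number as a block the Hox genes called remained 0 in each comparison, and the calls over all genes fell from 46, 6 and 2 to 17, 1 and 1; the libraries share a number and no stated pairing. Median-ratio scaling gave 229, 15 and 5 calls over all genes. Calls over all genes between homozygotes and wild types ranged from 14 (without wild-type 2) to 2161 (without wild-type 3) with 1 library left out, were 5068 (37.0%) with library weights and 11 without wild-type 1 and heterozygous 1. With library weights 4 of 9 TALE, 6 of 12 retinoic acid and 17 of 30 Polycomb genes were called, all higher. Also called, all higher, were 10 of 12 Trithorax, 9 of 12 CTCF and cohesin and 7 of 19 flanking genes. The 1 tested ParaHox and axial gene was called higher. No Hox gene was called, but only 3 were tested in that fit, too few to set against the 37.0% of all genes.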

Other observations

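Of 9 listed noncoding transcripts of the Hox clusters, Hotairm1 alone had a mean of at least 1 TPM. This long noncoding RNA of the Hoxa cluster was at 7.24, 0.98 and 14.2 in wild types, 1.65, 0.16 and 0.66 in heterozygotes and 8.07, 0.73 and 0 TPM in homozygotes. Its levels overlapped between genotypes, and its homozygous minus wild-type difference was -1.33 ± 0.85 on the log2 scale (SE, limma adjusted p = 0.329), and between -2.26 and -0.66 with 1 library left out. Hoxb3os, antisense to Hoxb3, lay between 0.08 and 0.88 TPM, and Hoxd3os1 was above 0 in 2 wild-type libraries, at 0.05 and 1.05 TPM, and at 0 in the other 7.

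Of 5 listed ParaHox and axial regulators, Gdf11, a ligand that sets the trunk to tail boundary, was the 1 gene tested, with a difference of 0.37 (limma adjusted p = 0.287). Cdx1, a caudal-type activator of Hox genes, was at 0.18 TPM in wild-type library 2, at 1.13 TPM in homozygous library 3 and at 0 elsewhere. Homozygous library 3 is the one with thymocyte and thymic epithelium transcripts. Its highest posterior Hox value was 0.16 TPM, of Hoxa9, which was at most 0.06 TPM in wild types. A link between Cdx1 and Hox levels was not tested.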
